A study of Mus musculus with 9 samples.

Results

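The promoters of mouse chromosome 16 were examined for how their chromatin accessibility differed between hematopoietic progenitors carrying Snai1 and the same cells carrying an empty vector. The members are all windows placed on chromosome 16 in the authors' deposited promoter table, 335 of 10271 after repeated rows were dropped. The chromosome had been picked because its windows changed most in this very contrast, so its changes are given as a description, with no test of them. The cells were HPC7, a mouse progenitor line kept in stem cell factor, and accessibility was read by ATAC-seq, which uses the Tn5 transposase to insert sequencing adapters wherever DNA is exposed. One group of 3 libraries came from cells given a retroviral vector (MIG) for FLAG-tagged wildtype Snai1, and the other group of 3 from cells given the empty MIG vector (EV). A further 3 libraries, from cells with the mutant mut5Snai1, were not analysed here. Whether a group's 3 libraries derive from independent transductions, and whether transduced cells were sorted, is not stated in the labels, so the authors' p-values may measure technical spread. The table gives 1 mean per group and no value per library, so no standard deviation can be attached to a level, and the depth of each library is unknown here. All 11 progenitor marker genes looked for, such as Kit, Lyl1 and Tal1, had a window, at log2 levels of 9.39 to 12.44 in Snai1 and 9.22 to 12.22 in EV. Of the markers of other cell types, 2 of 8 fibroblast genes, 0 of 4 B cell genes and 1 of 3 T cell genes had one. The fibroblast gene Pdgfrb had 10.21 in Snai1 and 10.14 in EV, within the range of the progenitor markers. Fap, also of fibroblasts, had 9.53 in Snai1 and 9.15 in EV, and the T cell gene Lck 8.5 and 8.44. Accessibility does not measure how much Snai1 the vector made: the cells' own Snai1 promoter, on chromosome 2, had 8.43 in Snai1 and 9.81 in EV, which is no check of the vector.

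A promoter is the stretch of DNA around a gene's start where the transcription machinery assembles, and at active genes it is kept largely free of nucleosomes, which is what Tn5 detects. Snai1 is a zinc finger repressor that binds E-box sequences and recruits histone-modifying enzymes, best known for silencing epithelial genes. Chromosome 16 carries Runx1, Ets2 and Bach1, transcription factors of blood cells, as well as a cluster of interferon receptor genes and genes whose human counterparts lie in the DiGeorge and Down syndrome regions. Levels below are the authors' log2 concentrations, DiffBind's term for normalized read density in a window, and a change is Snai1 minus EV on that log2 scale. The read count in a window depends on how many copies of the DNA the cells carry as well as on how open it is. No copy number was available for these cells, so fewer copies and less open chromatin cannot be told apart.

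The windows followed gene starts in mm10 coordinates. Wide windows (174 on chromosome 16) reach 1000 bp to either side of a start on the plus strand, and narrow windows (161) reach from 1000 bp before to 100 bp after a start on the minus strand. On chromosome 16, 329 windows lay within 1000 bp of an annotated start, 273 of them exactly on it. A further 5 lay inside a gene (Tfap4, Lpp, Golgb1, Zbtb20 and Nfkbiz) and 1 had no gene. They covered 333 genes, 315 of the windows being those of protein-coding genes and 13 those of long non-coding RNA genes.

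The promoters that stood farthest from the windows around them carry the clearest single-gene differences, and the bases before their starts are shown for 3 that were far below their neighbours and 3 that were far above. None is shown for Septin5 and Nmral1, which lay farther off than some of these 6. Each run holds the 250 bases before the annotated start, read 5′ to 3′ on the gene's strand, from RefSeq (GRCm38.p6, the same coordinates as mm10). Capitals mark the letters GGGCGG or their reverse complement CCGCCC, the core of a GC box, a site for Sp-family factors. The first 3 are of genes lower in Snai1 than their neighbours and the last 3 of genes higher.
Btg3, chr16:78376811-78377060, minus strand: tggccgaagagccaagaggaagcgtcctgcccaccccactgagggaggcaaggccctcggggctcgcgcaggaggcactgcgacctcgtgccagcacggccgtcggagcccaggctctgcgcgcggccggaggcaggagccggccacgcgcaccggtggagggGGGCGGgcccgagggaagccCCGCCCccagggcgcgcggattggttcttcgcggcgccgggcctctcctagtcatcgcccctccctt
Tmem44, chr16:30550579-30550828, minus strand: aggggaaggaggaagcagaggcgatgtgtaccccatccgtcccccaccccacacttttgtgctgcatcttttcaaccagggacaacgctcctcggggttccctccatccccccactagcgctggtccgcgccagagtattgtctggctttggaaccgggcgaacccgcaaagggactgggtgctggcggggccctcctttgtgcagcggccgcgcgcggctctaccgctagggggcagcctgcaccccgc
B4galt4, chr16:38742009-38742258, plus strand: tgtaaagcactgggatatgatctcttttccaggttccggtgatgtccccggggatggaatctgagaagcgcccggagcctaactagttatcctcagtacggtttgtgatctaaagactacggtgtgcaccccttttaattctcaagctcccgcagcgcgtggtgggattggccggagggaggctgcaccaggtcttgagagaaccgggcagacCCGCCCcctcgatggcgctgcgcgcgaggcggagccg
Dcbld2, chr16:58408285-58408534, plus strand: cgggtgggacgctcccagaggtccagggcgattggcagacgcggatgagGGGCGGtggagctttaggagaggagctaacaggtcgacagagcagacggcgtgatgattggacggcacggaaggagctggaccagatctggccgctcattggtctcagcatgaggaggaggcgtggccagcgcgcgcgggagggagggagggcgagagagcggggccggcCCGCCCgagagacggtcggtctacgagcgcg
Nectin3, chr16:46496968-46497217, minus strand: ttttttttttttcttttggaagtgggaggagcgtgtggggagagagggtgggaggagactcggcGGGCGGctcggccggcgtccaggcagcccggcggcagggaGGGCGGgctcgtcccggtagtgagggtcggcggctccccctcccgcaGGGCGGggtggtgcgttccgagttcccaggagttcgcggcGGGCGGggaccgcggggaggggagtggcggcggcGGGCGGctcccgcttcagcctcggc
Ubxn7, chr16:32332002-32332251, plus strand: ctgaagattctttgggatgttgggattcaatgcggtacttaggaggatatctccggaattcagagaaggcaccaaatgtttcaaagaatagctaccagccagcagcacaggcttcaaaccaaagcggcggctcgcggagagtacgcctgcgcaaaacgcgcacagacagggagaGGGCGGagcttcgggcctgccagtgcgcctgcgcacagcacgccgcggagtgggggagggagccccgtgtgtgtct
Their GC content ran from 58.8% in Ubxn7 and 59.2% in B4galt4 to 75.2% in Btg3, on both sides of the median of 61.2% for the same bases of 247 promoters of chromosome 16 with an exact entry in the table. The Btg3 run holds 2 GC boxes and 29 CpG. Nectin3 holds 5 GC boxes and 30 CpG, while Tmem44 holds no GC box and 18 CpG. None of the 6 runs contains CAGGTG, the E-box that Snai1 prefers, on either strand. In the same 250 bases, 11.7% of the 247 promoters of chromosome 16 held CAGGTG, against 13.9% of 6394 elsewhere. Little can therefore be read from its absence in 6 runs. A GC box was present in 60.3% and 62.0%.

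Chromosome 16 as a whole was lower in Snai1. Its median change was -0.35 (quartiles -0.53 and -0.13), against 0.09 (-0.03 and 0.18) for the 9936 windows of the other chromosomes. Below 0 lay 268 of its windows (80.0%), against 29.5% of the windows elsewhere. An FDR of 0.05 was passed by 276 of the 335 in the authors' deposited table, against 29.9% over the whole genome. Of these, 224 were lower in Snai1 (background 10.3%) and 52 higher (background 19.6%), and 59 did not pass. Since the chromosome was chosen on this contrast, nothing is read from these counts. The typical error of a single change, worked back from the authors' p-value and called the implied SE here, had a median of 0.08 on chromosome 16 and likewise 0.08 elsewhere.

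**Figure D1:**
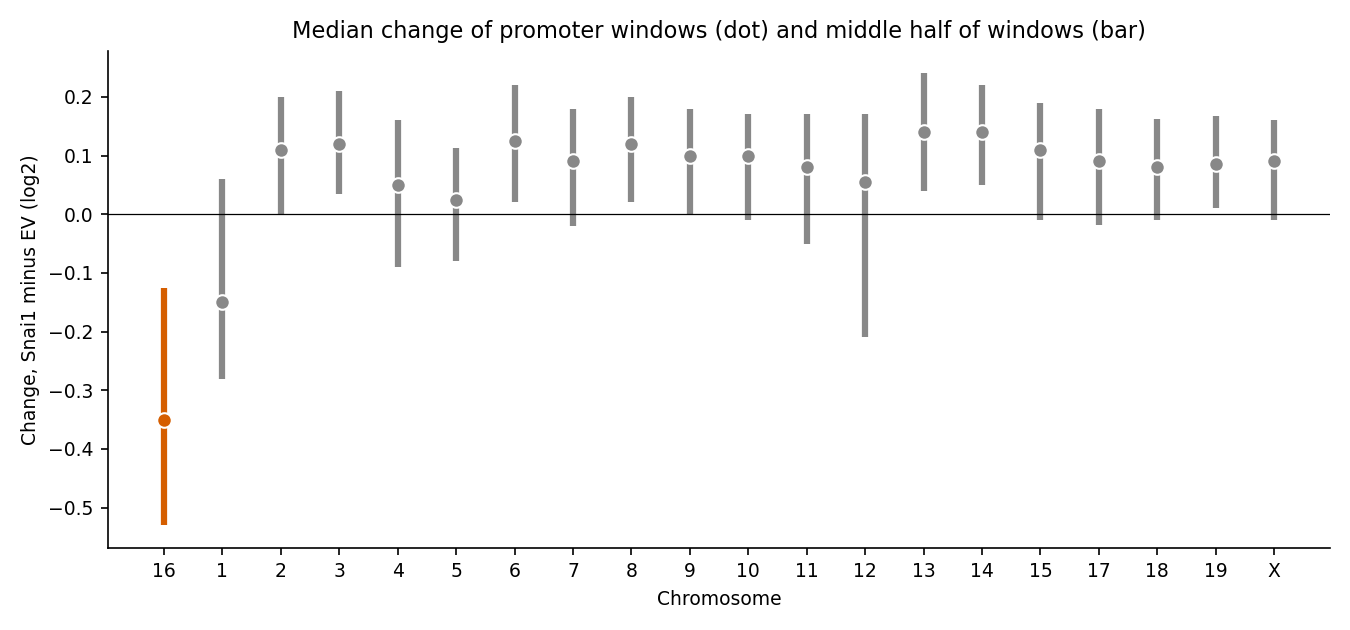
Median change of promoter windows, Snai1 minus EV in log2 units, for chromosome 16 (orange) and each other chromosome with at least 15 windows (grey), with bars from the first quartile to the third. Chromosome 16 has a median of -0.35, while the medians of the other 19 lie between -0.15 and 0.14.

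In Snai1 the level of chromosome 16 was close to that of the rest, and in EV it was above it. The median level of chromosome 16 was 10.82 in Snai1 and 11.16 in EV, and that of the other chromosomes 10.85 in Snai1 and 10.76 in EV. Among the 20 chromosomes with at least 15 windows, chromosome 16 ranked 10 from the top in Snai1, level with chromosome 14, and 3 in EV. Only chromosomes 1 and 17 had a higher median in EV, with 11.38 and 11.20. The medians of the other 19 chromosomes spanned 10.44 to 11.29 in Snai1 and 10.39 to 11.38 in EV.

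The change was not uniform along the chromosome but ran in steps. A partition of the windows with a log2 concentration of at least 9 divided chromosome 16 into 7 stretches, numbered here from the centromeric end. In the first, from 3.74 to 16.36 Mb (67 windows), promoters were higher in Snai1, with a median change of 0.32. Past it, 261 of 268 windows lay below 0. The stretch from 16.87 to 23.13 Mb had a median of -0.28, that from 23.99 to 33.38 Mb -0.46, and that from 33.68 to 38.74 Mb -0.32. The lowest was the fifth, from 42.91 to 52.03 Mb (27 windows), with -0.88. The sixth, the longest, from 55.82 to 92.06 Mb, had -0.40, and the last, from 92.30 to 98.08 Mb (24 windows), -0.71.

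**Figure D2:**
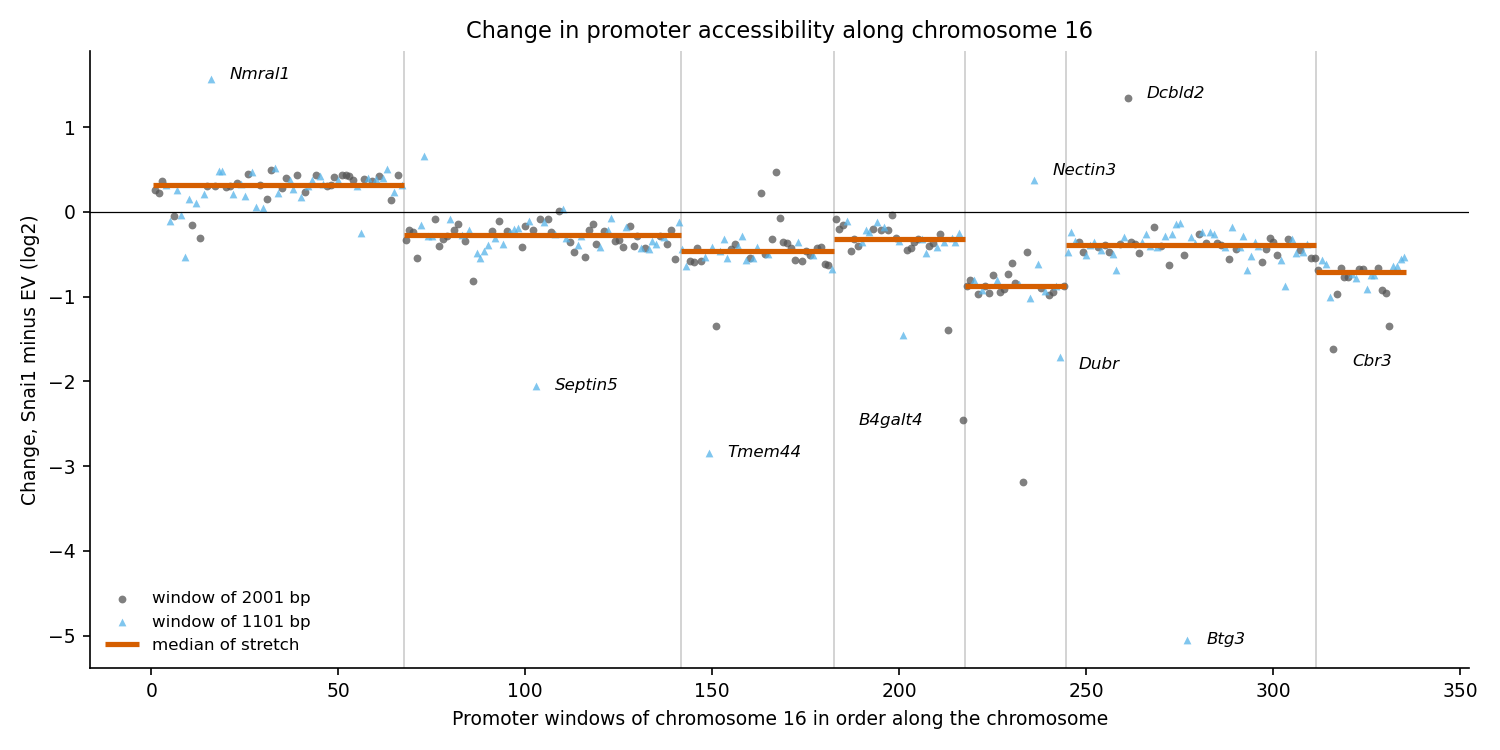
Change of each of the 335 promoter windows of chromosome 16, Snai1 minus EV in log2 units, in order along the chromosome, with window width by symbol and colour. Orange lines give the median of each of the 7 stretches, at 0.32 in the first and between -0.28 and -0.88 in the others, and the labelled genes stand away from them.

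Within a stretch most changes lay near the stretch median. The partition sets its borders to keep this spread small, so the closeness is in part built in. The spread of changes around the stretch median (robust SD, from the median absolute deviation) was between 0.104 and 0.156, against a median implied SE of single windows of 0.08 to 0.10. Between 81.8% and 89.7% of the well-covered windows of a stretch lay within 0.2 of its median. Both window widths gave similar medians: in the fifth stretch -0.88 for the wide and -0.87 for the narrow windows, and in the first 0.33 and 0.30. They lay farthest apart in the last stretch, with -0.77 for the wide and -0.685 for the narrow windows. Windows that overlap share reads and are not separate measurements: the 40 overlapping pairs, 36 of them on opposite strands, differed by a median of 0.02 and at most 0.35.

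The partition set each border between neighbouring well-covered windows, and the values beside it, given here for such windows alone, are a description of where it was set. Dnm1l, the gene of the mitochondrial fission GTPase, ended the first stretch at 0.32, and Top3b, of a topoisomerase, opened the second at -0.33, only 0.51 Mb farther on. The last 5 well-covered windows before that border lay between 0.14 and 0.51, and the first 5 past it between -0.54 and -0.15, with no overlap. Poglut1 (-0.35) and Ccdc191 (-0.80) flanked the border into the lowest stretch, 5.34 Mb apart, and the 5 well-covered windows on either side again did not overlap (-0.41 to -0.26, then -0.97 to -0.80). Between them lie 3 windows of lower coverage: Arhgap31, B4galt4 and Zbtb20. At the border from 1700007L15Rik (-0.68) to Heg1 (-0.09) the 5 windows on either side did overlap, with -0.68 to -0.41 before it and -0.46 to -0.09 past it. On leaving the lowest stretch, Cblb, a ubiquitin ligase that restrains receptor signalling, had -0.88 and Nfkbiz, a nuclear regulator of NF-κB targets, -0.47. At the border into the last stretch the medians of the 2 stretches differed by -0.315, and Mrps6 had -0.54, Smim11 -0.69, Rcan1 -0.57 and Runx1 -0.61 before Setd4 at -1.0.

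**Figure D3:**
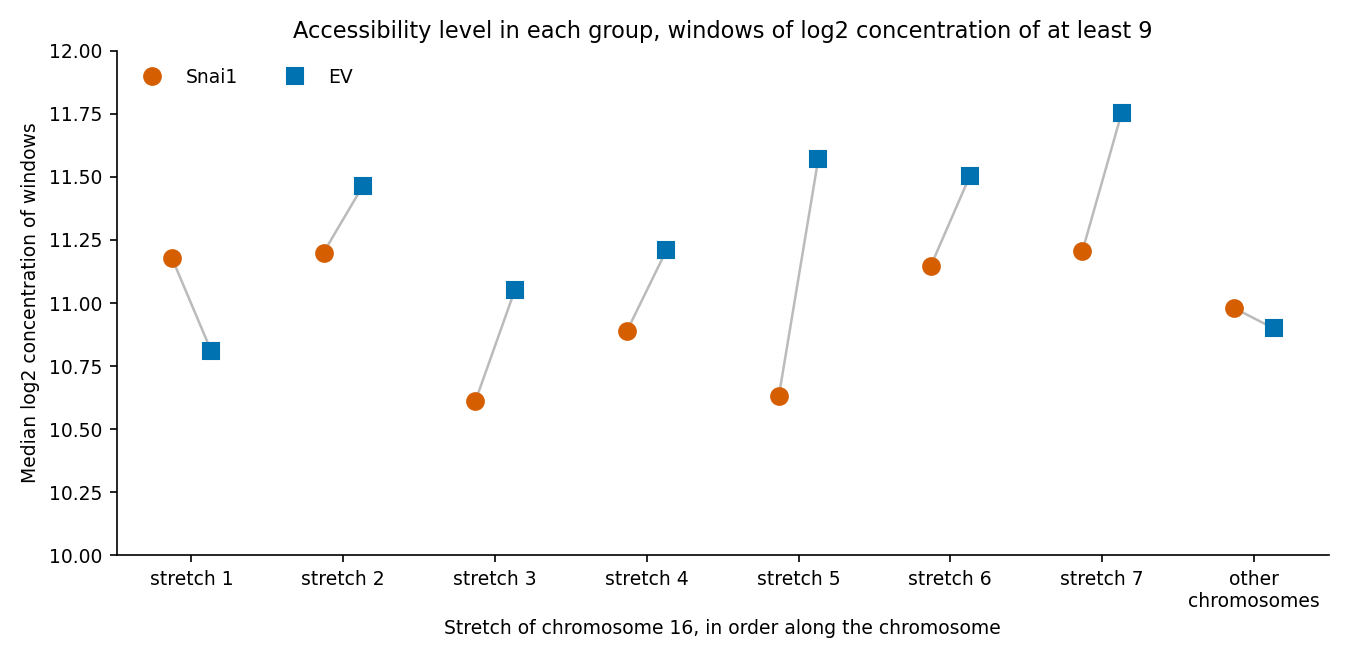
Median log2 concentration of well-covered windows (at least 9) in Snai1 (orange circles) and EV (blue squares) for each stretch of chromosome 16 and for all other chromosomes. The fifth stretch has 10.63 in Snai1 and 11.57 in EV, while the other chromosomes have 10.98 and 10.90.

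By level, the medians of the 7 stretches spanned 10.61 to 11.21 in Snai1 and 10.81 to 11.76 in EV. The well-covered windows of the fifth stretch had a median of 10.63 in Snai1 and 11.57 in EV, and those of the last 11.21 in Snai1 and 11.76 in EV. The first stretch had 11.18 in Snai1 and 10.81 in EV, the only stretch whose EV median lay below its Snai1 median. For comparison, well-covered windows of the other chromosomes had 10.98 in Snai1 and 10.90 in EV. All 6 lower stretches had EV medians above that 10.90. Their Snai1 medians fell on both sides of 10.98, from 10.61 in the third to 11.21 in the last. Stretches hold different genes, so these levels also differ by which promoters they contain.

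The first stretch holds 7 genes of the list for DNA replication, repair and cell cycle, of which 6 rose and Slx4, a nuclease scaffold, had -0.11 without passing. Mcm4, a subunit of the replication helicase, had 12.07 in Snai1 and 11.67 in EV (change 0.40, implied SE 0.08), and Prkdc, the DNA-dependent protein kinase gene that starts next to it on the opposite strand, had 12.24 in Snai1 and 11.82 in EV (0.42). The Mcm4 window lies within that of Prkdc, so the 2 values share reads. Ercc4, a nuclease of excision repair, changed by 0.32 and Rmi2, of the complex that dissolves recombination intermediates, by 0.44. Socs1, an inhibitor of cytokine signalling, changed by 0.27 and Mrtfb, a coactivator of serum response factor, by 0.41. The authors' deposited table called 48 of the 67 windows higher and 2 lower, against 19.6% and 10.3% of all windows. Since stretches were cut from these same changes, such counts here and below are descriptions. The 2 lower ones were Adcy9, of an adenylyl cyclase, and Marf1, of a meiosis regulator. Crebbp, the gene of the histone acetyltransferase CBP, had 10.64 in Snai1 and 10.68 in EV (-0.04), and did not pass (FDR 0.76 in the authors' deposited table). From Ubald1 to the end of the stretch the median was 0.36, with 40 of 49 windows called higher.

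The second stretch holds the genes around the DiGeorge region, and most were lower by small amounts, Septin5 (-2.05) being an exception. The 21 windows from Dgcr2 to Mrpl40 had a median of -0.23, and 14 were called lower and none higher in the authors' deposited table. On the whole chromosome 66.9% of windows were called lower and 15.5% higher, and over all windows 10.3% and 19.6%. Dgcr2 had 10.77 in Snai1 and 11.32 in EV (change -0.55, implied SE 0.08). Dgcr8, which processes microRNA precursors, changed by -0.20, and Hira, a histone chaperone, by -0.24. Cdc45, a replication factor, had a value of -0.12 and its neighbour Ufd1, of the protein-extraction machinery, -0.09, and neither passed; their windows overlap. Crkl, a signalling adaptor gene in the same stretch, changed by -0.21.

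In the third stretch 38 of 41 windows were called lower in the authors' deposited table, and in the one after it 25 of 35. On the whole chromosome 66.9% of windows were called lower, and over all windows 10.3%. Tfrc, the transferrin receptor gene, had 11.79 in Snai1 and 12.22 in EV (change -0.43), Hes1, a Notch target, had -0.58 and Pak2, a kinase of the cytoskeleton, -0.57. Bcl6, a transcriptional repressor of lymphocytes, had 9.79 in Snai1 and 10.23 in EV (-0.44). Where the fourth stretch begins, Heg1, Muc13, Itgb5 and Umps lay between -0.20 and -0.09, and 0 of these 4 passed in the authors' deposited table. Gsk3b, of a kinase in Wnt and insulin signalling, had the highest level of any window on the chromosome, 13.34 in Snai1 and 13.71 in EV (-0.37).

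The fifth stretch holds immune surface genes and several housekeeping genes, and 24 of its 27 windows were called lower in the authors' deposited table. The share called lower was 66.9% on the whole chromosome and 10.3% over all windows. Cd47, which signals to phagocytes not to engulf a cell, had 11.00 in Snai1 and 11.95 in EV (change -0.95, implied SE 0.10). The Cd200 receptor genes, of a receptor family of myeloid cells, lie side by side. Cd200r1 changed by -0.95, Cd200r4 by -0.91, Cd200r2 by -0.73 and Cd200r3 by -0.60. Their levels were low, between 6.29 and 8.13 in Snai1 and between 7.02 and 9.08 in EV, and their implied SE of 0.13 to 0.22 was larger than that of most windows. Members of this family are close copies of each other, so reads may be shared between them. Genes used by most cells changed by like amounts: Atg3, of autophagy, by -0.84 and Naa50, an acetyltransferase, by -0.97. Atp6v1a, a proton pump subunit, changed by -0.92, but its window lies within that of Naa50.

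The last 2 stretches hold the transcription factor and interferon receptor genes. The interferon and interleukin receptor genes of the cluster on the sixth stretch were all lower: Ifnar2 changed by -0.59, Il10rb by -0.44, Ifnar1 by -0.36 and Ifngr2 by -0.51. Ifnar1 had 11.82 in Snai1 and 12.18 in EV. Bach1, a heme-regulated repressor, had 11.91 in Snai1 and 12.47 in EV (-0.56), Gabpa, an ETS factor, -0.26 and Sod1, superoxide dismutase, -0.44. On the last stretch, Ets2 had 11.42 in Snai1 and 12.1 in EV (change -0.68, implied SE 0.07), and Dyrk1a, a kinase gene of the Down syndrome region, -0.67. The chromatin genes Brwd1 (-0.74), Hmgn1 (-0.75) and Chaf1b (-0.77), the last a subunit of a histone chaperone used in replication, lay within 0.04 of each other. All 24 windows of that stretch were called lower in the authors' deposited table, against 66.9% on the chromosome and 10.3% over all windows.

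By function, 8 gene lists were drawn up for the chromosome, with 151 of their 201 genes having a window. The lists were made with earlier results known, so their counts are descriptions. Of 22 blood transcription factor and chromatin genes, 17 were called lower and 1 higher in the authors' deposited table (median -0.47). Neither Snai2, a close relative of Snai1, nor Erg had a window. Of 11 interferon and cytokine genes, 6 were lower and 1 higher (median -0.36). For 15 immune surface and adhesion genes the counts were 9 and 2 (median -0.58). DNA replication, repair and cell cycle genes were split, 10 of 19 lower and 6 higher (median -0.24), and 7 of the 19 lie in the first stretch. Translation and RNA processing genes numbered 20 lower and 3 higher of 24, mitochondrial and metabolic genes 18 and 3 of 24, ubiquitin and turnover genes 17 and 2 of 22, and signalling genes 14 and 0 of 19, with medians of -0.38, -0.37, -0.35 and -0.35. For comparison, 66.9% of all windows of chromosome 16 were called lower and 15.5% higher, and over all 10271 windows 10.3% and 19.6%, with a median change of 0.08. Set against the 20 nearest windows (10 on each side), every list had a median between -0.03 and 0.07.

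To find promoters that stood off their neighbours, the median change of those 20 windows was subtracted from each change. Most windows were close: 260 of 335 lay within 0.2, and the 23 that differed by at least 0.5 are described here. Of these, 16 were below their neighbours (4.78%, where 3.73% of all windows were) and 7 above (2.09%, background 1.46%). Other chromosomes with at least 15 windows had between 2.50% and 4.95% below and between 0.452% and 3.503% above. Taken over all windows, the shares on chromosome 16 are near the background. Among well-covered windows, 15 of 305 (4.92%) were off in either direction, against 2.23% on the other chromosomes. In the authors' deposited table, 15 of the 16 were called lower and 5 of the 7 higher. On the whole chromosome 66.9% of windows were called lower and 15.5% higher, and over all windows 10.3% and 19.6%. The calls rest on the contrast by which these windows were picked, so they are no separate support. Just inside the threshold lay Top3b (-0.52), Arhgap31 (0.53) and Klhl22 (-0.54), and just outside it Ypel1 and Gcsam (-0.42 and 0.42) and Glis2 (-0.41). Top3b and Arhgap31 sit at a border between stretches, and set against their own stretch's median Top3b differed by -0.055 and Arhgap31 by 0.07.

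**Figure D4:**
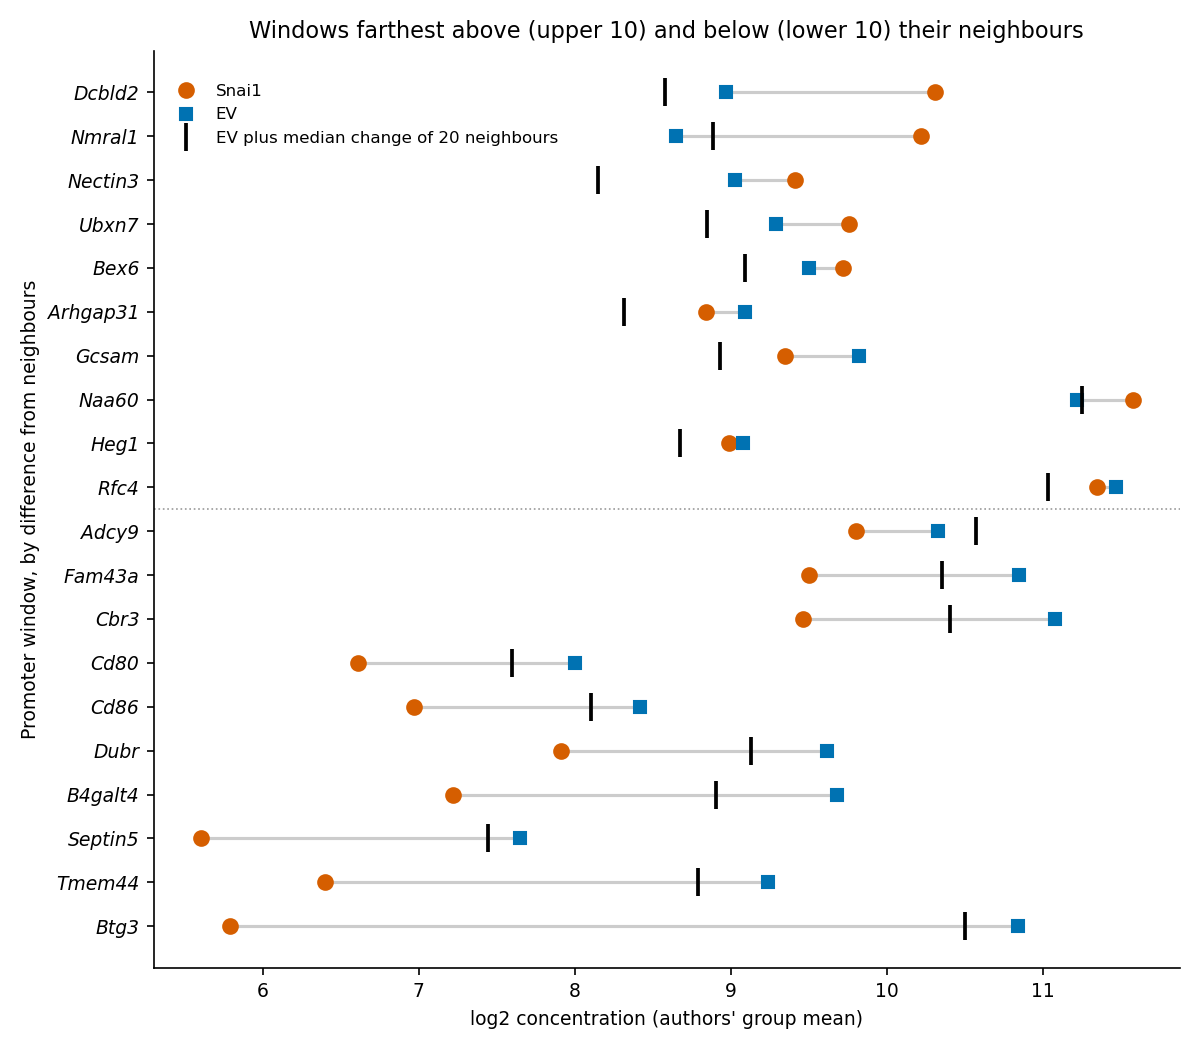
Log2 concentration in Snai1 (orange circles) and EV (blue squares) of the 10 named windows farthest above and the 10 farthest below their 20 neighbours. Black ticks mark the level a window would have if it had changed as its neighbours did; Btg3, at 5.79 in Snai1 and 10.84 in EV, lies farthest from its tick.

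Btg3 had by far the largest single change on the chromosome. Its window (chromosome 16, 78376657 to 78377757, 53 bp from the annotated start) had 5.79 in Snai1 and 10.84 in EV, a change of -5.05 (33.1-fold lower, implied SE 0.25). Btg3 belongs to a family of genes that restrain cell proliferation. Its neighbours had a median of -0.34: Usp25, a deubiquitinase gene on one side, changed by -0.51, and D16Ertd472e on the other by -0.30. The difference of Btg3 from its neighbours was -4.715, and it lay between -4.77 and -4.645 over the 5 choices of neighbours computed.

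Next below their neighbours came genes of low to middling level. Tmem44 (30550478 to 30551578) had 6.40 in Snai1 and 9.24 in EV (change -2.84, implied SE 0.15), a difference of -2.39 from its neighbours. Fam43a, 2 windows farther on, had 9.5 in Snai1 and 10.85 in EV (-1.35), while Lsg1 between them had -0.41. Septin5 (18629838 to 18630938), of a filament-forming GTPase family, had 5.60 in Snai1 and 7.65 in EV (-2.05), a difference of -1.85 from neighbours whose median was -0.21. B4galt4 (38741259 to 38743259), a galactosyltransferase gene, had 7.22 in Snai1 and 9.68 in EV, a difference of -1.69 from its neighbours. It ends the fourth stretch, and its difference from that stretch's median was -2.14. Dubr, a long non-coding RNA gene in the lowest stretch, had 7.91 in Snai1 and 9.62 in EV (-1.71), a difference of -1.22 from its neighbours and of -0.83 from its stretch's median.

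Cd80 and Cd86, whose proteins are the ligands of CD28 and CTLA-4 on T cells, both stood below their neighbours. Cd86 (36665977 to 36667077) had 6.97 in Snai1 and 8.42 in EV, a change of -1.45 (implied SE 0.16), and differed from its neighbours by -1.14. Cd80 (38457933 to 38459933) had 6.61 in Snai1 and 8.0 in EV, a change of -1.39 (implied SE 0.21), and differed by -0.99. They lie in the same stretch, where Hcls1, an adaptor gene of blood cells, changed by -0.35 and Cox17, a mitochondrial copper chaperone, by -0.26. Cbr3, a carbonyl reductase gene, had 9.46 in Snai1 and 11.08 in EV (-1.62), a difference of -0.95 from the promoters around it. Mx2, an interferon-induced gene that RefSeq lists among transcribed pseudogenes, had 9.81 in Snai1 and 11.16 in EV, a difference of -0.65. In the first stretch, where neighbours were higher in Snai1, Adcy9 had 9.80 in Snai1 and 10.33 in EV, a difference of -0.77 from them.

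Of the 7 windows above their neighbours, 6 had a change above 0: those of Dcbld2, Nmral1, Nectin3, Ubxn7, Bex6 and the uncharacterized gene 2610318N02Rik. Dcbld2 (58407535 to 58409535), of a neuropilin-like membrane receptor, had 10.31 in Snai1 and 8.97 in EV, a change of 1.34 (2.53-fold higher, implied SE 0.11), amid neighbours with a median of -0.39. Nmral1 (4719256 to 4720356), of an NADPH sensor, had 10.22 in Snai1 and 8.65 in EV (change 1.57, implied SE 0.09), 1.34 above its neighbours in the first stretch. Nectin3 (46496867 to 46497967), of a cell adhesion molecule at adherens junctions, had 9.41 in Snai1 and 9.03 in EV (0.38, implied SE 0.14). It sits in the lowest stretch and was 1.26 above its neighbours. Ubxn7, an adaptor gene of the p97 segregase, had 9.76 in Snai1 and 9.29 in EV (0.47), 0.92 above neighbours at -0.45.

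For 2610318N02Rik the window had 9.77 in Snai1 and 9.11 in EV (0.66), 0.88 above the neighbours, and was named after its value was seen. Bex6 had 9.72 in Snai1 and 9.5 in EV, a value of 0.22 that did not pass (FDR 0.09 in the authors' deposited table). The next in the order, Gcsam, Naa60, Heg1 and Rfc4, lay 0.32 to 0.42 above and so inside the threshold. Past the first stretch, 7 windows had a change of at least 0: besides Dcbld2, Nectin3, Ubxn7, Bex6 and 2610318N02Rik, these were B3gnt5 (0.01) and A930003A15Rik (0.03).

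**Figure D5:**
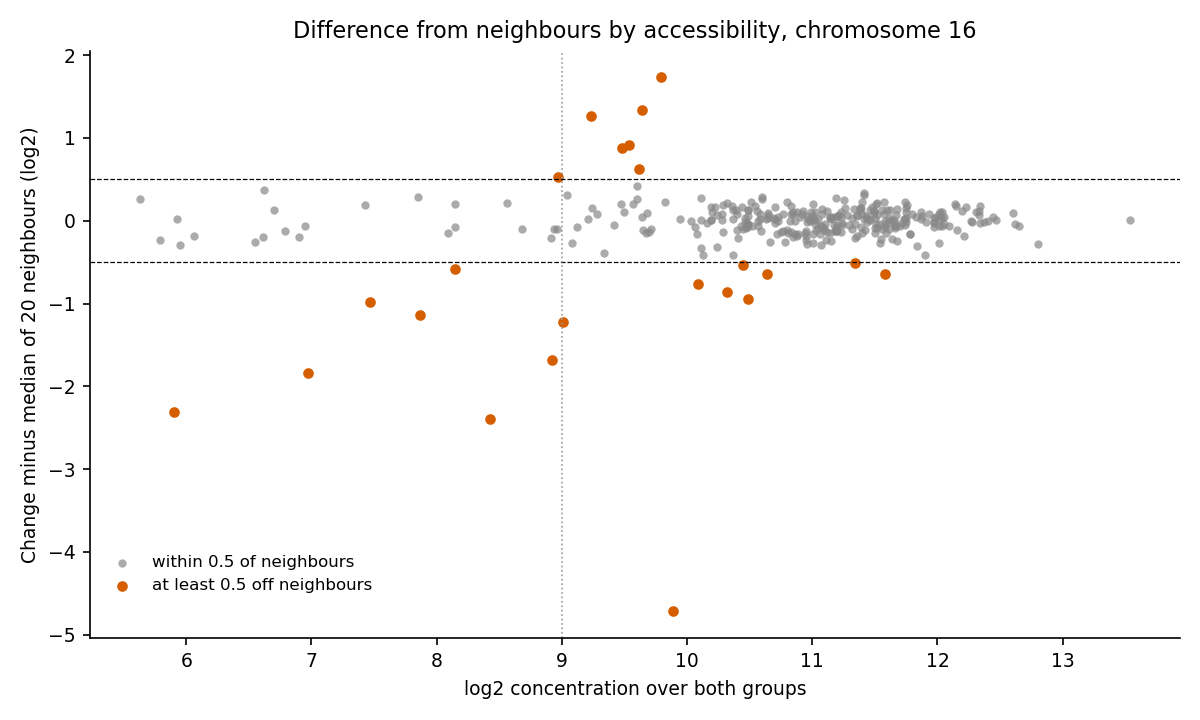
Change minus the median of 20 neighbours, in log2 units, against the log2 concentration over both groups for the 335 windows of chromosome 16, with dashed lines at 0.5 and a dotted line at a concentration of 9. Windows at least 0.5 off their neighbours (orange) make up 8 of the 30 windows left of the dotted line and 15 of the 305 right of it.

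Windows off their neighbours were more frequent at low accessibility, where the error is larger. Of the 30 windows with a log2 concentration under 9, 8 (26.7%) were at least 0.5 off, with a median implied SE of 0.19. Among the 305 others, 15 (4.92%) were, with a median implied SE of 0.08. The corresponding shares on other chromosomes were 28.1% and 2.23%. All 7 windows above their neighbours, Dcbld2 and Nectin3 among them, had EV levels in a narrow range from 8.65 to 9.5, below the median EV level of all windows (10.78). The EV level enters the change by which windows were picked, so a low EV level of those above is in part built in. The 312 windows within 0.5 of their neighbours had a median of 11.195 in EV (5.9 to 13.71). The 16 below their neighbours ranged from 6.75 to 11.70 in EV, and 9 of them lay under 10.78. Btg3, Cbr3, Mx2 and Fam43a were among those with EV levels above 10.78. A further window with no RefSeq gene (45204100 to 45206100, between Slc35a5 and Gcsam) had 3.56 in Snai1 and 6.75 in EV a difference of -2.32 from its neighbours, and was chosen after its values were seen.

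Sequence features of the promoters were close between chromosome 16 and the rest; they were not tested. Over the 300 bases from 250 before to 50 after the start, 32 of 247 promoters of chromosome 16 (12.96%) held the E-box letters CAGGTG on either strand, against 16.05% of 6394 promoters elsewhere. The median number of CpG was 23 against 22, the median GC content 62.3% against 61.3%, and a GC box was present in 66.0% against 67.0%. On chromosome 16, promoters with CAGGTG had a median change of -0.35 and those without it -0.36. Relative to their neighbours the medians were 0.01 and 0.00. Of the 14 promoters at least 0.5 off their neighbours with an exact entry, which include Tmem44, B4galt4 and Dcbld2, 10 below and 4 above, 0 held it. By stretch, the share with CAGGTG ran from 5.26% of 19 promoters in the last to 21.1% of 57 in the second. A match of letters is not a binding site, and its absence in this window says nothing of Snai1 binding elsewhere.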

How the data were processed

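ATAC-seq libraries of HPC7 cells with Snai1 or with the empty vector were compared. The submitters' processing notes name the mm10 build and the tools Bowtie2, DiffBind, Picard and fastp; no version, setting or Tn5 offset correction is stated there. The deposited log2 concentrations are the authors' group means after their normalization. The deposited p-value and FDR are the authors' own. Of 10274 rows, 3 were repeats. Columns with values of single libraries numbered 0, so no test was run.

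The change is the Snai1 mean minus the EV mean; the deposited log2 fold runs EV minus Snai1 and equals it, with the sign turned, within 0.01. The implied SE divides the change by the normal deviate that the authors' p-value gives; windows changed by less than 0.1 (14 on chromosome 16) took the median of their bin of accessibility (20 bins). Stretches came from an optimal partition of well-covered windows (log2 concentration 9 or more; no fewer than 15 windows each, changes limited to 0.75 from the centre, penalty factor 4), and other windows took the stretch of the nearest such window. The code for the partition and the neighbour differences was run on simulated data with fewer stretches. The smallest steps found here, 0.14 and -0.185 between stretch medians, were smaller than any simulated, so such borders were not tested. A window took the gene whose RefSeq start on its strand lay within 1000 bp, otherwise a gene that spans it.

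Named genes were the 10 farthest below and the 10 farthest above their 20 neighbours, leaving out predicted genes, and members of the 8 lists; others named are neighbours, borders or exceptions, picked after their values were seen. For a gene with several windows, lists used the one with the highest concentration. The chromosome and the lists were chosen with earlier results of these data known. Python 3.11.15, numpy 2.4.6, pandas 2.3.3, scipy 1.17.1 and matplotlib 3.10.9 were used.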

Additional observations from a re-analysis of the deposited data

How the results depend on the processing

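The median change of chromosome 16 was -0.35 and stayed within the implied SE of a single window when limited to well-covered windows, to either width, to 1 window per gene or taken as a mean; with the median of the other chromosomes subtracted it was -0.44. The 16 windows below their neighbours became 9 among well-covered windows and 7 at a threshold of 1, and the 7 above became 3 at that threshold; 5 or 20 windows on each side, windows within 2 Mb and, chosen after seeing the data, the stretch's own median kept both counts within 1.5 times. The partition gave 7 stretches, 9 with a penalty factor of 2 and 5 with 8. Set against their neighbours, list medians were -0.002 (blood transcription factors), 0.005 (interferon), 0.06 (immune surface), 0.005 (replication and repair), -0.012 (translation), 0.032 (mitochondrial), -0.028 (ubiquitin) and 0.07 (signalling); these are small because the neighbours' change is subtracted by construction. For the 20 named genes, 65 of 80 alternative differences from neighbours moved by less than the implied SE and 0 changed sign; Arhgap31 (0.07 to 0.555), Naa60 (0.04 to 0.33) and Rfc4 (0.155 to 0.315) moved most relative to their size, and Dubr ran from -1.22 to -0.81. No paired analysis was possible because only group means were at hand, and for the same reason no replicate could be left out. Low accessibility limits what can be read: the median implied SE was 0.19 under a log2 concentration of 9.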
